A study of Caenorhabditis elegans with 24 samples.

Results

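The steady-state RNA of adult C. elegans lacking the NSUN family of RNA methyltransferases was compared with that of wild-type animals, both kept at 20 °C. The comparison comprised 6 of the 24 libraries of the series, 3 from noNSUN animals and 3 from wild type, selected by their titles. Of 20447 genes in the count files, 10815 were expressed above the low-count filter and were tested, and all of these are covered here. noNSUN is a quadruple mutant in which a catalytic cysteine is replaced with alanine by the point alleles mj473 of nsun-1, mj458 of nsun-2 and mj457 of nsun-4, and nsun-5 carries the deletion allele tm3898. Wild type is the Bristol N2 strain. Animals of both genotypes were grown to adulthood at 20 °C on plates seeded with E. coli HB101 and then kept for several hours in liquid medium at 20 °C, and RNA was extracted from lysates of whole animals. The remaining libraries held RNA of both genotypes after a shift to 27 °C and ribosome footprints (RPF, mRNA fragments protected by ribosomes) from the same lysates. All 4 mutations were present together, so the data cannot assign a difference to one of the 4 genes.

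NSUN proteins transfer a methyl group from S-adenosylmethionine to carbon 5 of cytosine (m5C) in tRNA and rRNA. NSUN-2 acts on cytoplasmic tRNAs, NSUN-4 in mitochondria, and NSUN-1 and NSUN-5 on the large rRNA of the cytosolic ribosome. Many of the genes that differed between the genotypes encode collagens of the cuticle, the extracellular coat that the epidermis secretes and replaces at each moult. Some collagen genes are transcribed in a pulse before each larval moult, while others, such as col-19, are switched on in adults. Another part of the differing genes encodes antimicrobial and detoxification proteins made by the intestine and the epidermis.

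The 250 bases upstream of the annotated gene start are shown for 5 genes on which the description below turns: irg-5, the gene with the largest rise; col-20, the collagen with the largest rise; col-106, the collagen with the most matches to a GATA motif among those that rose; T25C12.3, the fall with the smallest p; and sqt-1, the collagen with the largest fall among those averaging at least 10 CPM. Sequences are 5′ to 3′ on the strand of the gene, from the WBcel235 genome, with gene starts from the Ensembl annotation. Capitals mark TGATAA or its reverse complement TTATCA, the core bound by GATA factors, a family that includes ELT-2 of the intestine and ELT-1 and ELT-3 of the epidermis.
irg-5 (chrV:13738475-13738724, minus strand): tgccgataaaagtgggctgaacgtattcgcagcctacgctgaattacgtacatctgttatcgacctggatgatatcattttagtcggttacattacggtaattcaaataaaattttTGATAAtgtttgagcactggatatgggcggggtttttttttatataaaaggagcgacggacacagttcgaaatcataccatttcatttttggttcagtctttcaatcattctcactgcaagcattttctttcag
col-20 (chrII:4870792-4871041, minus strand): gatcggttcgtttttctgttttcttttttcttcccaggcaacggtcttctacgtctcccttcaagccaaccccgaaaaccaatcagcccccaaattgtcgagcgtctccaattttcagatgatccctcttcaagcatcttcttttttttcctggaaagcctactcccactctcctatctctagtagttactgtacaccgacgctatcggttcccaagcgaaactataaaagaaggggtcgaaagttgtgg
col-106 (chrIV:1460787-1461036, minus strand): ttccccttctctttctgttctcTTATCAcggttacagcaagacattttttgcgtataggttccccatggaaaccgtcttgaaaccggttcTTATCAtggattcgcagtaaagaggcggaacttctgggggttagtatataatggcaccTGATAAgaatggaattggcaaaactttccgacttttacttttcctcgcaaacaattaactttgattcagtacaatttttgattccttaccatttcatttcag
T25C12.3 (chrX:11500000-11500249, minus strand): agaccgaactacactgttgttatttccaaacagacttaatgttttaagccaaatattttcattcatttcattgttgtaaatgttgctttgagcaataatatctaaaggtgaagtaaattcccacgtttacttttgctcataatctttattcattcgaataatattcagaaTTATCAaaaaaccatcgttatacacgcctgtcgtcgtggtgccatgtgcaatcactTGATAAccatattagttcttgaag
sqt-1 (chrII:11337838-11338087, minus strand): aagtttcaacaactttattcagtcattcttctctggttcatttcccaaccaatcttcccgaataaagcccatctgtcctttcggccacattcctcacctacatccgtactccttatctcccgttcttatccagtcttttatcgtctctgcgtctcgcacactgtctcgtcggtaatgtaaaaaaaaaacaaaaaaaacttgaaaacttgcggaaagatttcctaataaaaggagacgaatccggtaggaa
The windows of col-106, T25C12.3 and irg-5 held 3, 2 and 1 matches, and those of col-20 and sqt-1 held 0.

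The 6 libraries held 2641063 to 3412334 counts, and 3 counts corresponded to 0.879 to 1.14 CPM (counts scaled to the library's size). Libraries correlated with a Spearman coefficient of 0.953 to 0.972 across genes. Wild-type replicate 1 stood apart from the other 5 libraries. It had the lowest yolk and oocyte mRNAs, such as vit-2 with 27305, 29563 and 31333 CPM in noNSUN replicates 1, 2 and 3 against 15068, 30050 and 31539 CPM in the wild-type replicates, and the highest body wall muscle mRNAs, such as unc-54 with 2978, 2361 and 2391 CPM in noNSUN against 5211, 2454 and 2614 CPM in wild type. Replicate 1 deviated from replicates 2 and 3 in the other groups too, and the replicate number was therefore fitted as a block. Markers of intestine, epidermis, muscle, pharynx, neurons, germline and oocytes passed the filter, except for the epidermal bli-1, while the 4 sperm markers stayed at 0 to 0.743 CPM, the early embryo markers end-3 and med-2 at 0 to 1.54 CPM, and the male marker at 0. Of 37 markers 29 were tested, and of these the epidermal genes col-19 (higher) and rol-6 (lower) were called between the genotypes. Because whole animals were lysed, fewer cells of a type and less RNA per cell cannot be told apart.

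The targeted genes were examined first. nsun-5 had 34, 36 and 41 counts in the noNSUN libraries, against 72, 64 and 60 counts in wild type, so that the groups did not overlap. Its fold change on the log2 scale was −0.86 ± 0.20 (SE, edgeR adjusted p = 0.0394), and reads of nsun-5 remained in every mutant library. nsun-5 lies on chromosome II (WBcel235, 14969617 to 14977005, plus strand) and overlaps metl-2 on the same strand, so reads of the gene pair may have been split in counting. nsun-1 (−0.16 ± 0.08, adjusted p = 0.432), nsun-2 (0.07 ± 0.09, adjusted p = 0.768) and nsun-4 (−0.02 ± 0.13, adjusted p = 0.967) did not pass the test, and a read count cannot show a point mutation.

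Of the 10815 genes, 160 (1.48%) differed between noNSUN and wild type at an adjusted p under 0.05. Of these, 67 (0.62%) were higher and 93 (0.86%) were lower in noNSUN. The rises were moderate, with a median log2 fold change of 0.79, 20 of 67 over 2-fold and 1 over 4-fold. The falls were larger, with a median of −1.12, 47 of 93 over 2-fold and 16 over 4-fold. All 67 rises went the same way in 3 of 3 replicate pairs, as did 92 of 93 falls. The genes were called by a fit with the replicate block to the same libraries, so this agreement describes the calls and does not test them. The groups did not overlap in 63 of the 67 rises but only in 24 of the 93 falls, against 4.37% and 4.03% of all tested genes that were higher or lower without overlap. Over both directions 87 of the 160 did not overlap, against 8.4% of all genes. In 68 of the 69 falls with overlap, noNSUN replicate 1 lay above a wild-type library of replicate 2 or 3, and in 67 of the 69 both mutant libraries of replicates 2 and 3 lay below both wild-type ones. These counts too describe genes selected on the same values, with no share of all genes beside them. Without the block, 9 of the 160 genes passed the threshold: irg-5, col-20, cyp-14A5, F54F7.2, col-80, dod-23 and F54E2.1 among the rises, and T25C12.3 and spp-17 among the falls. With replicate 1 left out of every group, 61 of 67 rises and 44 of the 83 falls still tested passed.

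**Figure D1:**
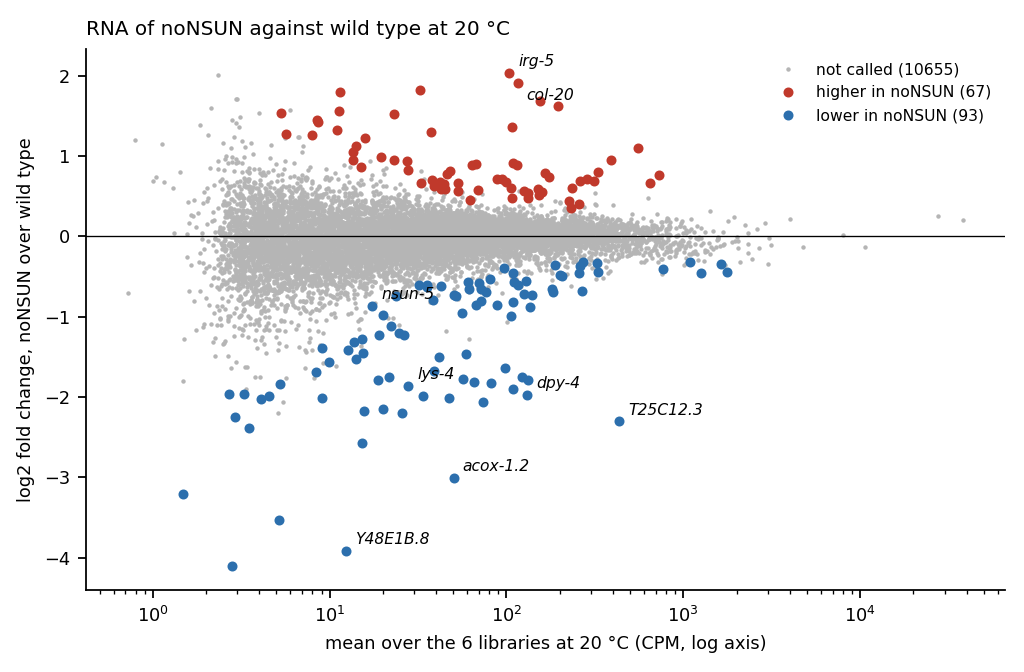
Each point is 1 of the 10815 tested genes, placed by its mean level over the 6 libraries at 20 °C (CPM, log axis) and its log2 fold change, noNSUN over wild type. Red points mark the 67 genes called higher and blue points the 93 called lower, and the falls reach −4.10 while the rises end at 2.03.

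The largest rise was that of irg-5 (WBGene00009429), an infection response gene encoding a CUB-like domain protein that lies downstream of the p38 kinase PMK-1 in intestinal defence. It had 170, 163 and 167 CPM in noNSUN, against 27.4, 43.9 and 51.7 CPM in wild type. The mutant libraries lay close together and all above the wild type, with a log2 fold change of 2.03 ± 0.14 (adjusted p = 1.61e-07, and 0.000809 without the block). dod-23, a gene named for its position downstream of the FOXO factor DAF-16, had 301, 220 and 366 CPM in noNSUN, against 68.8, 109 and 112 CPM in wild type, again without overlap (log2 fold change 1.62 ± 0.15, adjusted p = 1.26e-05). dod-24, a CUB-like infection-induced gene, rose less (0.89 ± 0.20, adjusted p = 0.0335). These were the 3 called members of 14 tested irg and dod genes (21.4%, against 1.48% of all genes). None fell, and the median of the list was 0.12.

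Other defence genes moved in either direction. Among 8 lysozymes, enzymes that cut bacterial cell walls, lys-7 rose slightly (log2 fold change 0.44 ± 0.08, adjusted p = 0.00876). lys-4 had 13.1, 11.8 and 9.16 CPM in noNSUN, against 75.8, 32.3 and 25.1 CPM in wild type. The groups did not overlap, and wild-type replicate 1 was the highest (−1.86 ± 0.20, adjusted p = 5e-05, but 0.22 without the block). ilys-5, an invertebrate-type lysozyme, also fell (−0.45 ± 0.10, adjusted p = 0.0312). Calls thus made up 37.5% of the 8 lysozymes, against 1.48% of all genes. Of 16 saposin-like genes, whose products include membrane-permeabilising antibacterial peptides, spp-17 and spp-14 fell and none rose (12.5%, against 1.48% of all genes). spp-17 had 24.3, 26.3 and 43.2 CPM in noNSUN, against 88.4, 65 and 107 CPM in wild type, a fall that held with and without the block (−1.46 ± 0.18, adjusted p = 0.000173 and 0.041). nlp-29, an epidermal antimicrobial peptide gene induced by fungal infection and wounding, was the called member of 21 genes of its kind (0.83 ± 0.16, adjusted p = 0.00936). That was 4.76% of the list, against 1.48% of all genes. Of 57 C-type lectin genes clec-72 fell (1.75%, against 1.48% of all genes). It had 28.9, 4.73 and 5.89 CPM in noNSUN, against 75.8, 9.66 and 8.05 CPM in wild type. clec-72 did not pass without replicate 1 (edgeR adjusted p = 0.329). None of the 5 tested pals genes of the intracellular pathogen response was called.

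Among 81 cytochrome P450 and UDP-glucuronosyltransferase genes, which modify and conjugate small molecules, 4 rose and 1 fell (6.17%, against 1.48% of all genes). cyp-14A5 had 60.1, 47.6 and 44.2 CPM in noNSUN, against 20.7, 11.1 and 11.1 CPM in wild type, with no overlap (1.82 ± 0.18, adjusted p = 2.09e-05). ugt-29 rose by 1.22 ± 0.21 and cyp-13A5 by 0.66 ± 0.13 on the log2 scale. ugt-65, which overlaps the collagen gene col-130 on the opposite strand, had 5.78, 2.66 and 1.96 CPM in noNSUN, against 32.3, 2.97 and 4.64 CPM in wild type (−1.69 ± 0.41, adjusted p = 0.0475). The groups overlapped and the value rested on wild-type replicate 1. The difference in replicates 2 and 3 was −0.60, and the gene was not tested without replicate 1. None of 33 glutathione transferase and redox genes and none of 22 cytosolic heat-shock genes passed the test.

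Falls outside the collagens included T25C12.3, acox-1.2 and Y48E1B.8. T25C12.3 (WBGene00012018) had 149, 141.6 and 132 CPM in noNSUN, against 1046, 557 and 576 CPM in wild type. All mutant libraries lay far below the lowest wild-type library, and the smallest p of the comparison belonged to this gene (log2 fold change −2.31 ± 0.12, adjusted p = 4.15e-09, and 0.000809 without the block). acox-1.2 encodes a peroxisomal acyl-CoA oxidase of the family that shortens the side chains of ascaroside pheromones. It had 17.3, 7.09 and 3.93 CPM in noNSUN, against 223, 31.6 and 19.8 CPM in wild type, where replicate 1 was far above the others (−3.01 ± 0.37, adjusted p = 0.000197, and 0.588 without the block). Y48E1B.8 had 5, 3 and 3 counts in noNSUN, against 168, 23 and 9 counts in wild type (−3.92 ± 0.41, adjusted p = 2.81e-05), and overlaps clec-145 on the opposite strand. The steepest fitted fall of all, −4.10 for the insulin-like gene ins-35, rested on 14 CPM in wild-type replicate 1 against 1.11 and 0.929 CPM in the other wild-type libraries, with at most 0.385 CPM in noNSUN.

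**Figure D2:**
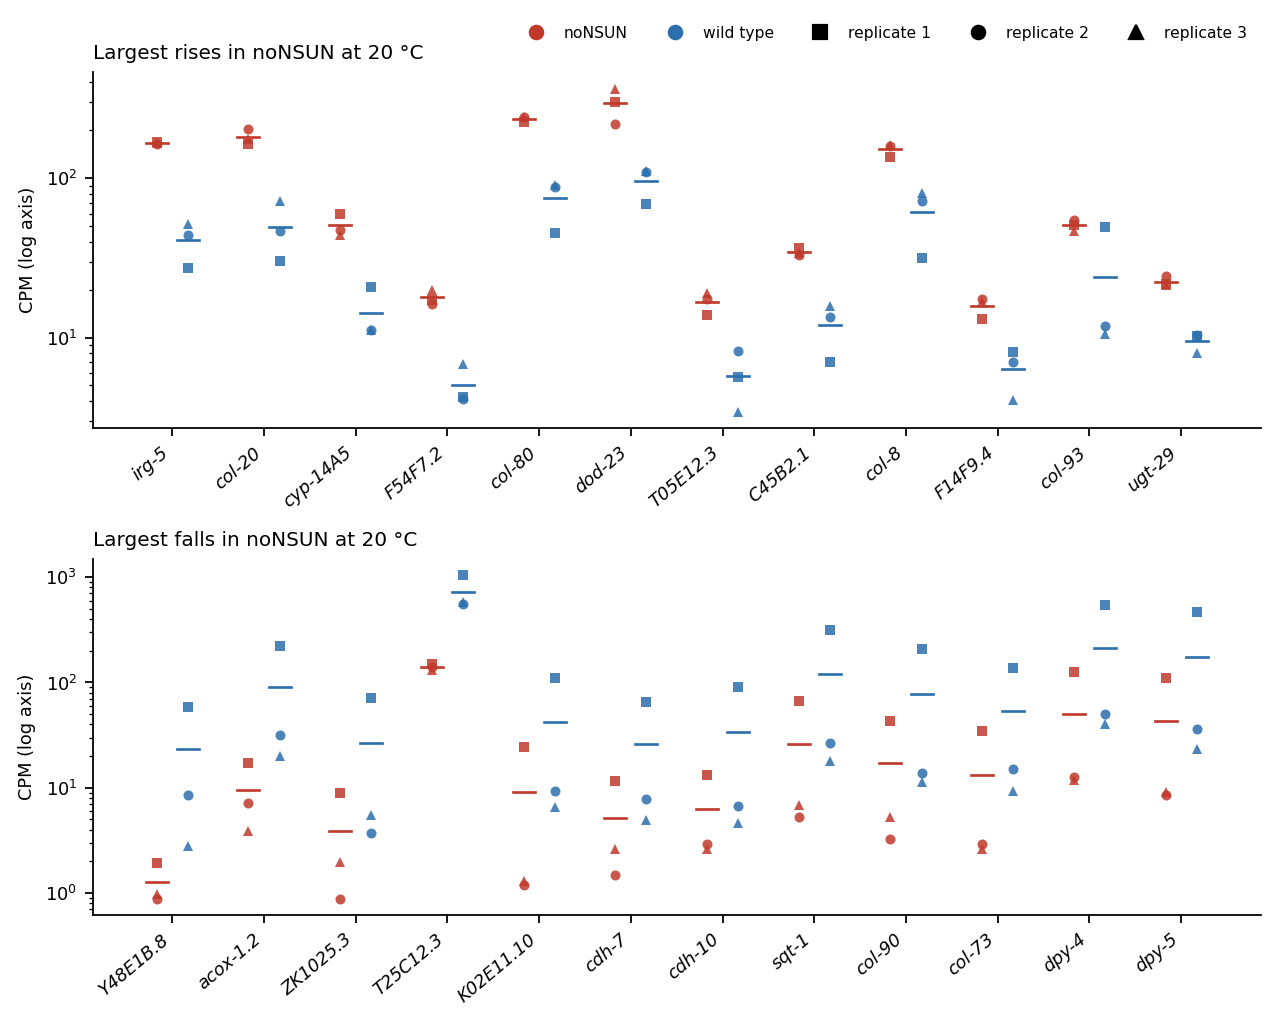
CPM (log axis) in each library for the 12 called genes that rose most (top) and the 12 that fell most (bottom), of those averaging at least 10 CPM. Red symbols left of each tick are noNSUN and blue symbols right of it wild type, the shape gives the replicate number and the bar the group mean. Among the rises the groups overlap in col-93 alone, whereas in most falls replicate 1 (squares) is the highest library of both genotypes, with T25C12.3 at 132 to 149 CPM in noNSUN and 557 to 1046 CPM in wild type.

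Cuticle collagens were the gene family with the most calls. Of 175 collagen genes of the list, 99 were tested and 46 (46.5%) were called, against 1.48% of all genes. The 46 made up 28.7% of all calls. The calls went both ways, 19 up and 27 down, and the median over the 99 genes was −0.49, or −0.19 with replicate 1 left out.

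The 19 collagens that rose had log2 fold changes of 0.53 to 1.91 with a median of 0.77. col-20 had 163, 205 and 177 CPM in noNSUN, against 30.2, 46.8 and 72.1 CPM in wild type (1.91 ± 0.16, adjusted p = 1.62e-06, and 0.041 without the block). col-80 had 226, 241 and 243 CPM in noNSUN, against 45.3, 88.5 and 91.3 CPM in wild type (1.68 ± 0.14, adjusted p = 2.78e-06), and overlaps dph-2 on the opposite strand. In both genes the groups were separate and wild-type replicate 1 was the lowest library. The adult collagen col-19 had 97.4, 124 and 129 CPM in noNSUN, against 45.6, 85.5 and 84.8 CPM in wild type (0.72 ± 0.12, adjusted p = 0.00499). The more abundant col-119 had 697, 736 and 787 CPM in noNSUN, against 181, 436 and 489 CPM in wild type (1.10 ± 0.15, adjusted p = 0.000792). The groups did not overlap in 18 of the 19, the exception being col-93, whose 49.5 CPM in wild-type replicate 1 lay within the mutant range of 46.5 to 55 CPM. Of col-93, however, 36.7% of the exonic 31-base stretches were unique to the gene, so its counts may have been shared with other collagens. As a description of genes chosen by their fold change, the summed level of the 19 was 5850, 5913 and 6075 CPM in noNSUN replicates 1, 2 and 3, against 2260, 3786 and 4251 CPM in wild type, which is 2.59, 1.56 and 1.43 times the wild type within replicates. With replicate 1 left out, 18 of the 19 passed. Without the block, col-20 and col-80 passed.

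The 27 collagens that fell had log2 fold changes of −3.20 to −0.56 with a median of −1.78. The largest fall, that of col-13, concerned a gene of which 17.7% of the exonic 31-base stretches were unique. The 27 included sqt-1, rol-6, rol-8, dpy-4, dpy-5 and dpy-13, collagens whose mutations make larvae and adults short or twist the body. sqt-1 had 66.6, 5.32 and 6.87 CPM in noNSUN, against 317, 26.8 and 18 CPM in wild type (−2.06 ± 0.30, adjusted p = 0.00122). dpy-4 had 127, 12.7 and 11.8 CPM in noNSUN, against 546, 49.8 and 39.9 CPM in wild type (−1.98 ± 0.28, adjusted p = 0.000792). In every one of the 27 the groups overlapped, and in sqt-1 and dpy-4 replicate 1 was the highest library of both genotypes, with the mutant lower in each replicate. The summed level of the 27 was 1675, 335 and 352 CPM in noNSUN, against 5627, 717 and 598 CPM in wild type, or 0.298, 0.467 and 0.589 times the wild type within replicates. Without the block none of the 27 passed, and without replicate 1, 12 of the 24 still tested passed, sqt-1, dpy-4, dpy-5, col-73 and col-90 among them.

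**Figure D3:**
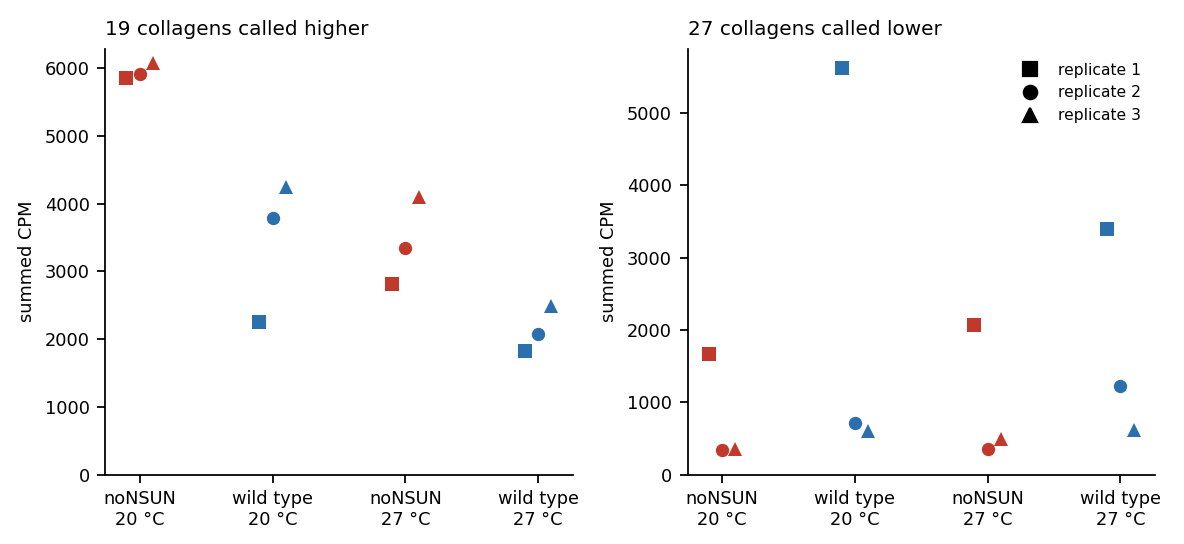
Summed CPM of the 19 collagens called higher (left) and the 27 called lower (right) in each RNA library, with the genotypes at 20 °C and 27 °C along the x axis and symbols for the replicate number. At 20 °C the 19 sum to 5850 to 6075 CPM in noNSUN and 2260 to 4251 CPM in wild type, and the 27 reach 5627 CPM in wild-type replicate 1.

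Replicate 1 was also high for these collagens at 27 °C, in libraries outside the contrast that nevertheless entered the fit and its block. In the 27 °C libraries the log2 level in replicate 1 minus that in replicates 2 and 3, averaged over both genotypes, had a median of 2.59 in the 27 genes and was above 1 (over 2-fold) in 24 of them. In the 19 that rose this difference had a median of −0.42 and was below 0 in 15. The 53 collagens not called lay between, with a median of 0.63, 43 above 0 and 22 over 2-fold, so a high replicate 1 was not confined to the collagens that fell. Over all 93 falls, collagens included, replicate 1 was over 2-fold higher at 27 °C in 49, against 394 (3.64%) of all tested genes. Of these 49, 16 of the 41 still tested passed without replicate 1, while 28 of 42 passed among the other 44 falls. The level of vit-2 and other yolk genes was lowest, and that of unc-54 highest, in the same wild-type library in which these collagens were highest, and the part of that library's composition in the falls was not tested.

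**Figure D4:**
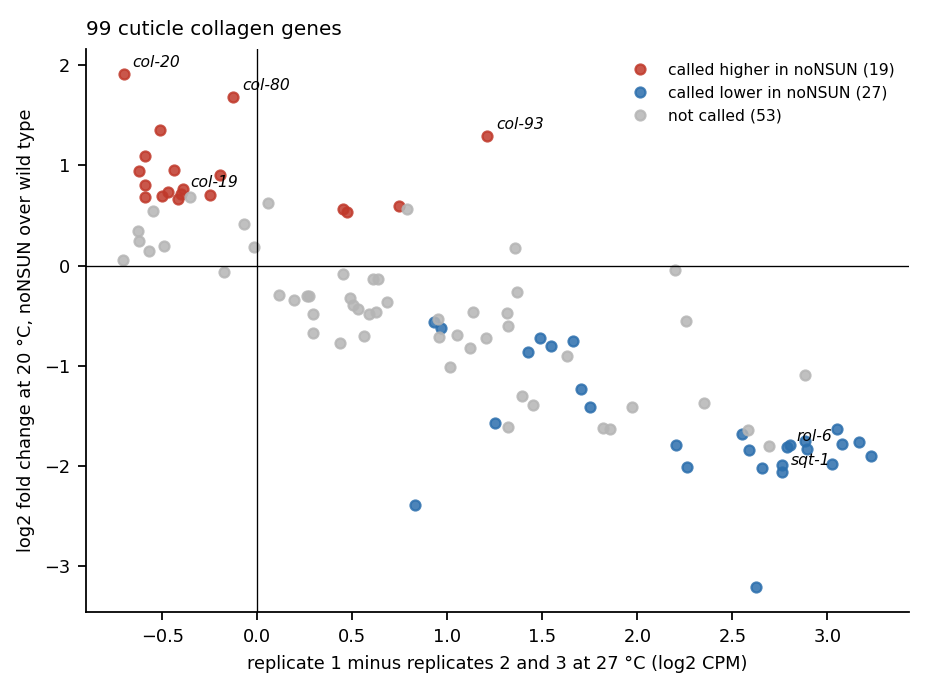
Each of the 99 tested cuticle collagens is placed by its replicate 1 level minus that of replicates 2 and 3 at 27 °C (x axis, log2 CPM) and by its log2 fold change at 20 °C, noNSUN over wild type (y axis). Blue points, the 27 collagens called lower, lie at 0.83 to 3.23 on the x axis, and most red points, the 19 called higher, lie below 0.

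Other genes of the epidermis and the moult were called in smaller shares than the collagens. Of 18 tested astacin metalloproteases, nas-3 and nas-15 fell and nas-11 rose (16.7%, against 1.48% of all genes). That list was chosen after the values were seen. Of 82 hedgehog-related, patched-related and moulting genes, mlt-10 and wrt-4 fell (2.44%, against 0.86% of all genes), none rose, and the median was −0.27, or −0.08 without replicate 1. wrt-4, a hedgehog-related gene, fell by 1.204 on the log2 scale but did not pass without replicate 1 (adjusted p = 0.376). mlt-10, required for moulting, had 96.3, 52.6 and 51.4 CPM in noNSUN, against 285, 83.6 and 70.9 CPM in wild type, an overlap between the groups but a lower mutant value in each replicate (−0.997 ± 0.196, adjusted p = 0.0127). Collagen is hydroxylated in the endoplasmic reticulum by prolyl 4-hydroxylase, in which dpy-18 encodes a catalytic subunit and pdi-2 the disulphide isomerase subunit. Of 11 such collagen processing genes, a list chosen after the values were seen, pdi-2 (−0.46 ± 0.09, adjusted p = 0.0115), pdi-6 (−0.37 ± 0.08, adjusted p = 0.0329) and dpy-18 (−0.40 ± 0.10, adjusted p = 0.0437) fell. That was 27.3% of the list, against 1.48% of all genes. Among 18 genes of folding in the endoplasmic reticulum the calls were pdi-2 and pdi-6, which are in both lists, and the calreticulin gene crt-1, all lower. They were 16.7% of the list, against 1.48% of all genes. The cadherin genes cdh-7 (−2.17 ± 0.33) and cdh-10 (−2.16 ± 0.37) fell too, with 65.3 and 90.9 CPM in wild-type replicate 1, and neither passed without replicate 1. Likewise, lin-42, the period homologue that paces the larval moults, had 122, 78 and 68.7 CPM in noNSUN, against 351, 100 and 98.8 CPM in wild type, and was picked out after its values were seen (−0.89 ± 0.19, adjusted p = 0.0214).

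The translation machinery, in which the substrates of NSUN enzymes lie, showed few differences in mRNA level. None of 78 cytosolic ribosomal protein genes (median −0.06), 65 mitochondrial ribosomal protein genes (median −0.14), 39 nucleolar and ribosome biogenesis genes (median −0.02) or 27 RNA modification enzymes outside the NSUN family (median 0.00) was called, against a median of −0.01 over all genes. Of 31 aminoacyl-tRNA synthetases, aars-1, an alanyl-tRNA synthetase gene, fell (3.23% of the list, against 1.48% of all genes). It had 27, 23.4 and 26.2 CPM in noNSUN, against 40.4, 40.1 and 36.2 CPM in wild type, without overlap (−0.61 ± 0.14, adjusted p = 0.0312). Of 41 translation factors, the eIF5A gene iff-2 (−0.68 ± 0.15, adjusted p = 0.0242) and eif-3.B, a subunit gene of eIF3 (−0.34, adjusted p = 0.0327), fell. They were 4.88% of the list, against 1.48% of all genes. iff-2 had 250, 155 and 182 CPM in noNSUN, against 579, 208 and 224 CPM in wild type, and the groups overlapped.

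Of 42 tested nuclear genes of oxidative phosphorylation, 5 (11.9%) fell, against 0.86% of all genes, none rose and 37 did not pass. The log2 fold change was negative in 36 of the 42 and in 5601 of all 10815 genes, and the median of the list was −0.22, or −0.13 without replicate 1. The 5 were isp-1, cyc-1 and ucr-2.1 of complex III, sdha-1 of complex II and atp-1 of ATP synthase. isp-1, the Rieske iron-sulphur protein, had 184, 155 and 168 CPM in noNSUN, against 329, 195 and 206.8 CPM in wild type, where replicate 1 was again the highest (−0.50 ± 0.10, adjusted p = 0.0124). None of the 5 passed without the block. Without replicate 1, 4 of the 42 genes were called lower. isp-1 (adjusted p = 0.0218) and cyc-1 (adjusted p = 0.0346) passed in that fit, but ucr-2.1 (adjusted p = 0.135) did not. Of 11 tested genes on mitochondrial DNA, a list chosen after the values were seen, none was called, and their median was 0.11. Their summed level was 3422, 5012 and 5122 CPM in noNSUN replicates 1, 2 and 3, against 6157, 3408 and 3577 CPM in wild type. Replicate 1 thus went the other way from replicates 2 and 3, and with it left out 6 of the 11 were called higher, with a median of 0.59. None of 16 mitochondrial stress response genes passed.

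Polyamine synthesis genes moved apart, in a list of 3 chosen after the values were seen. odc-1, ornithine decarboxylase, which makes putrescine, had 43.5, 34.6 and 34.4 CPM in noNSUN, against 105, 61.3 and 57.9 CPM in wild type (−0.96 ± 0.12, adjusted p = 0.000182). smd-1, S-adenosylmethionine decarboxylase, which provides the aminopropyl donor for spermidine, had 196, 200 and 229 CPM in noNSUN, against 122, 114 and 127 CPM in wild type (0.79 ± 0.10, adjusted p = 0.000294). Neither gene's groups overlapped, but neither passed without the block (adjusted p = 0.556 for odc-1 and 0.131 for smd-1). ahcy-1, which hydrolyses the S-adenosylhomocysteine left by methyltransferases, fell by 0.45 ± 0.09 on the log2 scale (adjusted p = 0.0212). It was the 1 call among 10 methionine cycle genes (10%, against 1.48% of all genes), a list also chosen after the values were seen.

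Several large groups showed no call. These were 6 vitellogenins, 25 oocyte and eggshell genes, 39 histones, 7 sperm genes, 28 muscle genes, 13 neuronal genes, 33 proteasome subunits, 129 F-box, MATH and BTB genes, 38 transthyretin-related genes and 20 lysosomal proteases. With replicate 1 left out, 3 vitellogenins (median of the list −0.17, against 0.10 with all replicates), 2 oocyte and eggshell genes and 2 histones were called lower, and 1 gene each of the F-box, MATH and BTB, transthyretin-related and lysosomal protease lists was called higher. A gene without a call is not shown to be equal in both genotypes. In data simulated on these libraries, the same fit recovered 37 of 50 genes changed 1.5-fold (74%) and 46 of 50 changed 2-fold (92%). Recovery among weakly expressed genes, or with a wild-type replicate 1 that stands apart, was not tested. Of 43 germ granule and small RNA pathway genes 1 (2.33%) was called, the Argonaute gene ppw-2, which rose by 0.35 on the log2 scale. Of 127 nuclear hormone receptors 1 (0.787%) was called, nhr-114, which fell (−0.85 ± 0.18, adjusted p = 0.0187). Both shares were near the 1.48% of all genes.

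The direction of the calls was examined in other libraries of the same strains. In the RNA of animals shifted to 27 °C, 153 of the 160 genes had the sign seen at 20 °C, against 59.6% of all tested genes. The 27 °C libraries had entered the fit behind the calls. Same-numbered libraries of the same genotype at 20 °C and 27 °C also had correlated deviations from their group means (r = 0.191 to 0.659). The temperatures therefore cannot be taken as independent samples of the genotypes. Of the 160, 20 were called at 27 °C with the same sign, 15 rises and 5 falls, where 23 of all 10815 genes (0.213%) were called, 18 higher (0.166%) and 5 lower (0.0462%). irg-5 had 132, 123.4 and 149 CPM in noNSUN, against 25.8, 19.1 and 27.3 CPM in wild type at 27 °C (2.47 ± 0.16, adjusted p = 1.49e-07). T25C12.3 had 198, 148 and 169 CPM in noNSUN, against 644, 448 and 459 CPM in wild type at 27 °C (−1.58 ± 0.12, adjusted p = 1.08e-06). In both genes the genotypes were again separate. Of the 19 collagens that rose, all had the same sign and 8 were called at 27 °C, while of the 27 that fell all had the same sign and none was called. The difference between the effects at 20 °C and 27 °C was tested for every gene by the interaction, and 0 genes were called by edgeR, with 410 at an unadjusted p under 0.05. A call at 20 °C alone therefore does not show that the effect differed between the temperatures. The smallest p of the interaction, 1.54e-05, belonged to F54E2.1, whose fold change was 0.88 at 20 °C and 0.05 at 27 °C.

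**Figure D5:**
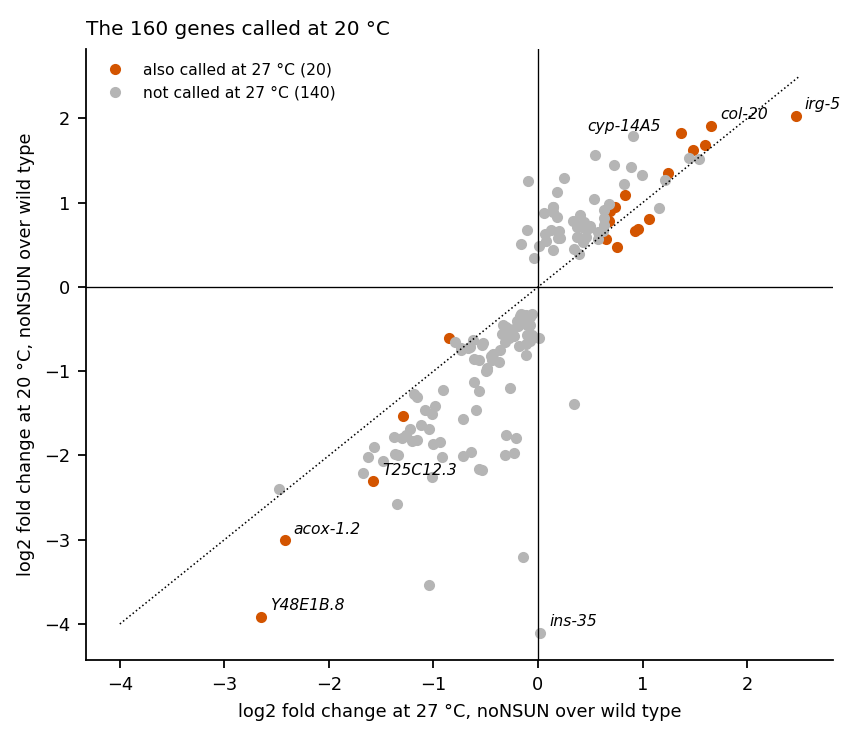
Log2 fold change, noNSUN over wild type, at 27 °C (x axis) and at 20 °C (y axis) for the 160 genes called at 20 °C. Orange points are the 20 genes also called at 27 °C, the dotted line marks equal effects, and 153 points lie in the quadrants of equal sign.

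Footprints of the same lysates at 20 °C were shallow, 35173 to 140854 counts a library. Only 1624 genes could be tested, of which 56 (3.45%) were called, 47 higher and 9 lower. Of the 67 rises in RNA, 26 were tested in footprints, 25 had the same sign and 12 were called. Of the 93 falls, 34 were tested, 27 had the same sign and 5 were called. Over the 1599 genes tested in both assays, 56.1% had the same sign, and 43 were called higher and 9 lower in footprints. Among the collagens that rose, col-20, col-119, col-122, col-124, col-140, col-178, col-179, col-181 and col-184 were also higher in footprints. The 5 falls in footprints were T25C12.3, dpy-5, rol-8, spp-14 and crt-1. T25C12.3 had 7, 7 and 3 footprints in noNSUN, against 30, 64 and 18 in wild type, a log2 fold change of −2.30 ± 0.38 beside −2.31 in RNA (adjusted p = 0.000342 in footprints). dpy-5 had 6, 0 and 0 footprints in noNSUN, against 44, 16 and 9 in wild type (adjusted p = 9.46e-06), so its fold change rests on 6 mutant footprints. Footprints and RNA share their animals and are not independent samples of the genotypes.

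The upstream windows were searched for TGATAA on both strands. It was found in 26.5% of the 10695 windows of tested genes, in 27 of 67 (40.3%) of the genes that rose and in 29 of 92 (31.5%) of those that fell. Among collagens it was found in 9 of the 19 that rose (47.4%), 8 of the 27 that fell (29.6%) and 13 of the 53 not called (24.5%). The longer CTTATCA, which contains TTATCA and was also read on both strands, was found in 8.41% of all windows, in 6 of the 19 collagens that rose (31.6%) and in 3 of the 27 that fell (11.1%). GTAAACA, the core bound by FOXO factors such as DAF-16, was found in 4.63% of all windows, in 2 of the 67 rises and in 5 of the 92 falls. These shares are descriptions without a test, and a match is not evidence of binding.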

How the data were processed

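RNA-seq was done by the authors on rRNA-depleted input RNA of the lysates used for ribosome profiling, with a directional library kit. Per the study's methods and the processing notes of the submitters, the reads went through FastQC, Trimmomatic 0.39 and SortMeRNA (removal of rRNA reads) and were aligned to WBcel235 by HISAT2 2.1.0, and HTSeq-count gave the deposited raw counts per WormBase gene. The HTSeq version, its strand setting and the annotation release are not given in the sources used here, so overlapping, antisense and near-identical genes are uncertain: 25 of the 160 called genes had under 90% of their exonic 31-base stretches unique to them. The authors also deposited footprint counts per gene. Of 20447 gene IDs, 20159 matched the Ensembl release 115 annotation of WBcel235 and 19620 had a symbol.

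Counts were analysed with edgeR 4.0.16 (R 4.3.3, limma 3.58.1): TMM normalisation, filterByExpr (minimum count 10, minimum total 15), quasi-likelihood fits over the 12 RNA libraries with a coefficient per genotype and temperature and the replicate number as a block, a two-sided test of noNSUN minus wild type at 20 °C, and Benjamini-Hochberg adjustment over all genes tested. A gene is called at an adjusted p under 0.05. All adjusted p-values in the text are from this fit unless another is named. SE was obtained as the absolute log2 fold change over the root of the F statistic. CPM were computed on the TMM-scaled library sizes. Footprints were fitted in the same way over 12 libraries.

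The titles number replicates 1 to 3 in every group without saying what a number stands for. Deviations from the group means correlated between same-numbered libraries of the genotypes at 20 °C with r = 0.27 to 0.591 (3 of 3 pairs over 0.1), and the numbers were therefore taken to pair the libraries. Differently numbered ones had a mean of −0.189. Centring each group on its own mean pushes that value to the negative side when same-numbered values are positive. Its sign is therefore no separate evidence of pairing. Between numbers 2 and 3 the values were 0.265 and 0.352, so the check sets replicate 1 apart and does not show that 2 and 3 are paired. The study describes the replicates as biological, and the labels do not say what separated them.

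Named genes were the 4 nsun genes, the 12 largest rises and 12 largest falls among calls averaging at least 10 CPM, and up to 3 calls in each direction with the smallest p of each gene list; genes named beyond these were chosen after their values were seen. The gene lists and the comparison were chosen with earlier results of these data known. The fit was tested on simulated data. Alternatives were a fit without the block, the 6 libraries alone, DESeq2 1.42.0, limma-voom, RLE normalisation, other low-count filters and leaving out libraries. Other growth temperatures and RNAi feeding named in the labels concern experiments not analysed here. The floor of 3 counts covers counting error only, whereas the SE comes from the fit and includes the spread between libraries.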

Additional observations from a re-analysis of the deposited data

How the results depend on the processing

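The number of calls depended on the replicate block, the low-count filter and single libraries. Against 67 rises and 93 falls, the fit without the replicate block gave 7 and 2, the 6 libraries at 20 °C alone gave 10 and 23 with the replicate block and 0 and 0 without it (266 genes at an unadjusted p under 0.05), and no low-count filter gave 134 and 255. DESeq2 gave 49 rises and 47 falls. Limma-voom gave 64 and 118, RLE normalisation 67 and 95, and a minimum mean of 5 CPM 66 and 74. Leaving out 1 of the 6 libraries gave 29 to 107 rises and 20 to 260 falls; the 29 came without noNSUN replicate 2, the 20 without noNSUN replicate 1 (35 rises) and the 107 without wild-type replicate 1 (77 falls), and without wild-type replicate 2 there were 101 and 260. Leaving out replicate number 1, 2 or 3 in all groups gave 120, 28 and 17 rises and 86, 44 and 21 falls. Of alternatives chosen after seeing the data, no replicate block without replicate 1 gave 102 rises and 50 falls, and no replicate block without wild-type replicate 1 gave 17 and 6. All main calls that were tested kept their sign in each of these fits except the last, in which 130 of 160 did.

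Over 979 alternative fits of the 52 named genes, 644 kept their direction and side of the threshold, 325 kept the direction but not the call, and 10 reversed. The reversals were nsun-4, which had no call (−0.0431 to 0.0167 over the fits that left out libraries, positive without noNSUN replicate 3 and without replicate 3), and, with no replicate block and without wild-type replicate 1, clec-72 (0.51), dpy-5 (0.47), col-90 (0.36), sqt-1 (0.17), dpy-4 (0.11), K02E11.10 (0.10), cdh-10 (0.077) and col-73 (0.039). In that fit the remaining high replicate 1 library of the genotypes at 20 °C is a mutant one. Without the replicate block, 3 of the 160 genes were called at 27 °C in place of 20, and 8 were called in footprints in place of 17. The cause of these differences was not tested. At 2641063 to 3412334 counts a library, genes at a few counts such as ins-35 have fold changes set by single libraries. For Y48E1B.8, with 3 to 5 counts in noNSUN, the size of the fall varied with replicate 1 (−3.92 with it and −2.55 without it). Its call held in 9 of 9 fits that left out libraries.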

Other observations

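Among calls outside the gene lists, the amide-nitrogen genes asns-2, asparagine synthetase, and gln-3, glutamine synthetase, were both lower in noNSUN. asns-2 had 140, 143 and 134 CPM in noNSUN, against 172, 262 and 233 CPM in wild type, with no overlap and with wild-type replicate 1 the lowest wild-type library (log2 fold change −0.66 ± 0.11, edgeR adjusted p = 0.00299). gln-3 had 250, 198 and 199 CPM in noNSUN, against 331, 246 and 312 CPM in wild type, where the groups overlapped (−0.46 ± 0.09, adjusted p = 0.0137). xdh-1, xanthine dehydrogenase of purine breakdown, fell by 0.75 ± 0.18 (adjusted p = 0.0419). The beta-tubulin gene tbb-6 had 11.2, 11.5 and 14.7 CPM in noNSUN, against 2.81, 5.2 and 5.88 CPM in wild type (1.42 ± 0.26, adjusted p = 0.00876). The galectin gene lec-8 had 189, 189 and 186 CPM in noNSUN, against 101, 138 and 149 CPM in wild type (0.55 ± 0.10, adjusted p = 0.00897), and was also called higher in footprints (2.16, adjusted p = 0.0368). These genes were picked after their values were seen.

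The long non-coding RNA lep-5, which acts in the timing of male tail maturation, was the 1 call that is not protein-coding. It had 15.4, 15.1 and 14.1 CPM in noNSUN, against 68.8, 27.1 and 17.3 CPM in wild type, a separation in which wild-type replicate 1 was the highest library (−1.22 ± 0.29, adjusted p = 0.0395). Called genes were spread unevenly over the chromosomes: 10 of 1824 tested genes on chromosome III (0.548%), 17 of 1831 on I (0.928%), 27 of 1818 on II (1.49%), 31 of 1751 on IV (1.77%), 33 of 1585 on X (2.08%) and 42 of 1921 on V (2.19%). Of the mutated genes, nsun-1 and nsun-5 lie on chromosome II and nsun-2 and nsun-4 on chromosome I. The shares of calls on these chromosomes were 1.49% and 0.928%, against 1.48% of all genes. Whether calls lay near the mutated loci was not tested.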
